A study of Homo sapiens with 6 samples.

Results

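The 6 mismatch repair genes examined here are MSH6, MSH3, PMS2, PMS1, MLH3 and EXO1, which were found by gene symbol among the 20020 genes of a bulk RNA-seq count table. Each symbol matched 1 row, and all 6 genes passed the filter on low counts that left 12925 genes for testing. The libraries came from HCT116, a human colorectal carcinoma cell line known for deficient mismatch repair. They comprised 3 libraries of CAD knockout cells (CAD-KO+IR) and 3 of control cells that carried the empty vector (sgVec+IR). By the study's description, both groups had been exposed to ionizing radiation (IR) at 8 Gy, and RNA was taken 24 h later, so no comparison with unirradiated cells was available. The knockout had been made with the lentiCRISPRv2 vector as a stable line, and the sequenced libraries stand for 1 knockout line. No source used here states that the libraries of a group came from separate cultures, so the p-values measure only the spread between these samples, which may be technical.

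Mismatch repair removes bases that were misplaced or slipped during DNA replication. A MutS heterodimer finds the mismatch, with MSH6 giving the form that reads single mismatches and short loops, and MSH3 the form that reads larger insertion and deletion loops. A MutL heterodimer then acts through PMS2 or MLH3, while PMS1, also a MutL subunit, has no settled role in this repair. The exonuclease EXO1 removes the strand that carries the error before the clamp PCNA, the single-strand binding protein RPA and polymerase delta fill the gap.

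The protein called CAD here is caspase-activated DNase, the product of the gene DFFB, and not the product of the gene with the symbol CAD. DFFB had 185, 192 and 217 counts in the 3 CAD-KO+IR libraries and 357, 335 and 297 in the 3 sgVec+IR libraries. Levels are given as counts per 1000000 of the library total, scaled with TMM factors (CPM), and those of DFFB averaged 10.8 ± 1.32 and 21.9 ± 0.995 CPM (SD, n = 3 each). The groups did not overlap, and the fold was 0.494 with a 95% interval of 0.360 to 0.678. The adjusted p was 0.550 in edgeR's quasi-likelihood test and 0.00187 in DESeq2. Library totals ran from 14032994 to 19574144 counts, and all CAD-KO+IR libraries were deeper than all sgVec+IR libraries. The library sgVec+IR replicate 3 stood apart, with a correlation of log2 CPM of 0.890 and 0.886 to the others of its group and 7561 genes without a count, against 4577 to 5232 in the other libraries. CAD-KO+IR replicate 2 stood apart to a lesser degree, with correlations of 0.969 and 0.975 to the others of its group. All 6 epithelial markers tested (CDH1, KRT8, KRT18, KRT19, CLDN4 and CLDN7) were present, with summed levels of 2584.0 to 3874.5 CPM in CAD-KO+IR and 1825.1 to 3993.0 CPM in sgVec+IR. KRT8 made up the largest part of the sum, and single markers differed. CDH1 was at 63.9 to 69.8 CPM in CAD-KO+IR and 93.9 to 99.7 CPM in sgVec+IR (fold 0.687, edgeR's unadjusted p = 0.00752 and adjusted p = 1.0, called in 2 of 18 alternatives). KRT18 was at 446 to 494 and 274 to 440 CPM (fold 1.24, edgeR's unadjusted p = 0.174, called in 0 of 18 alternatives). Groups did not overlap for these markers, against 10.2% of all genes tested that did not overlap. The part of these differences in the results for the mismatch repair genes was not tested. Of the 8 markers of immune cells, fibroblasts, endothelium and liver, CD3E had no count and the others except COL1A1 stayed at or below 1.06 CPM, whereas COL1A1 was at 10.9 to 47.8 CPM.

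Among the 6 genes, MLH3 was higher in every CAD-KO+IR library than in every sgVec+IR library, at about double the level, while the other 5 genes overlapped between the groups. None of the 6 was called by edgeR at an adjusted p under 0.05 and a fold of at least 1.5 (0 of 6, against 0.0309% of all genes tested). At an unadjusted p under 0.05 in the same test there was 1 of 6, MLH3, against 2.85% of all genes. Groups that did not overlap were found for 1 of 6, again MLH3, against 10.2% of all genes. DESeq2 called 1 of 6, against 0.245% of its genes, and this too was MLH3. The median log2 fold change was 0.04 over the 6 genes, 3 of them higher and 3 lower, and -0.01 over all genes tested.

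**Figure D1:**
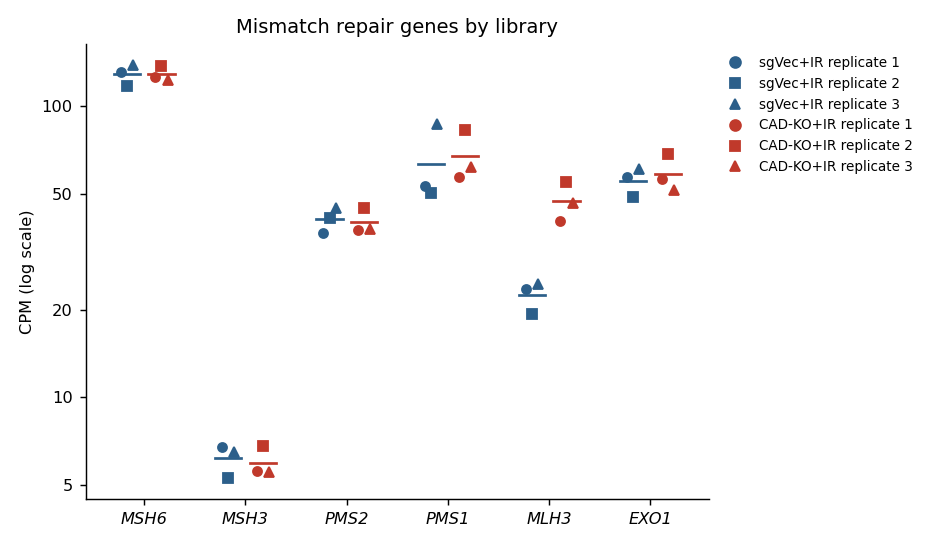
CPM of the 6 mismatch repair genes in each library, on a log scale, with sgVec+IR in blue, CAD-KO+IR in red, 1 marker shape per replicate number and a bar at the mean of 3 libraries. MLH3 is at 40.2 to 55.1 CPM in CAD-KO+IR and 19.4 to 24.5 CPM in sgVec+IR, and the groups overlap for the other 5 genes.

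The coding sequences of these genes hold runs of a single base, the kind of repeat at which polymerases slip and which mismatch repair guards. The longest run of each gene is shown because repeats of this kind are typical substrates of the pathway itself. The run is in capitals, in the sense of the gene, with the coding bases on either side, from the GENCODE 29 reference transcripts on GRCh38.
MLH3: gagaaagagAAAAAAAAAgaatctagc
MSH6: cggaagataCCCCCCCCttcttagag
MSH3: gttagggacAAAAAAAAgggcaacat
PMS2: ctggagaagAAAAAAAAgacgtgtcc
PMS1: ctcaactgcAAAAAAAtgtaaagat
EXO1: tcatttctcAAAAAAAgacacacct
The run of 9 A in MLH3 spans codons 583 to 585 in exon 2 of MLH3-201, at chr14:75047901-75047909 on the minus strand, and 1.32% of 19920 coding genes hold a run of at least that length. The runs of 8 bases lie in exon 5 of MSH6-201 (codons 1085 to 1087, chr2:47803501-47803508, plus strand), exon 7 of MSH3-201 (codons 381 to 383, chr5:80675096-80675103, plus strand) and exon 11 of PMS2-201 (codons 411 to 413, chr7:5987526-5987533, minus strand). At least 8 bases in a run were found in 5.66% of coding genes, and at least 7, the longest in PMS1 and EXO1, in 22.4%. The EXO1 run shown is in exon 12 of EXO1-201 (chr1:241881990-241881996, plus strand), and another run of 7, of T, lies in exon 11. Gene counts do not read the length of these runs in HCT116, and only the reference is shown.

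MSH6 had the highest counts of the 6 genes and did not differ between the groups beyond the spread between libraries. It lies on the plus strand at chr2:47695530-47810101. Its level was 126, 137 and 123 CPM in CAD-KO+IR and 131, 117 and 139 CPM in sgVec+IR. Both groups averaged 129 CPM, with an SD of 7.32 in CAD-KO+IR and 11.1 in sgVec+IR (n = 3 each). The fold was 0.997 with a 95% interval of 0.780 to 1.27, so a change as large as 1.5-fold lay outside the interval in either direction. MSH6 had the smallest relative spread of the 6 genes, with a coefficient of variation of 5.69% in CAD-KO+IR and 8.59% in sgVec+IR. In the annotation the gene overlaps FBXO11, which runs on the opposite strand, and the use of strand in the counting is not given in the sources used here, so reads of the overlap could have been assigned to either gene or left out.

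MSH3, the alternative partner in MutS, had the lowest counts and also overlapped between the groups. It lies on the plus strand at chr5:80654648-80876460. Counts were 103, 129 and 97 in CAD-KO+IR and 110, 77 and 92 in sgVec+IR. These are levels of 5.58, 6.80 and 5.52 CPM against 6.73, 5.27 and 6.49 CPM. The means were 5.97 ± 0.721 and 6.16 ± 0.781 CPM (SD, n = 3 each). The fold was 0.968 with a 95% interval of 0.651 to 1.44. Counting error alone gives MSH3 a coefficient of variation of 8.8% to 11.4% per library, most of the 12.1% and 12.7% observed within the groups, so a small difference in MSH3 was not detectable at this depth.

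PMS2, the MutL subunit that carries the endonuclease used in replication-coupled repair, overlapped between the groups. It lies on the minus strand at chr7:5973239-6009125. The levels were 37.7, 44.7 and 38.0 CPM in CAD-KO+IR and 36.8, 41.3 and 44.6 CPM in sgVec+IR. The means were 40.1 ± 3.96 and 40.9 ± 3.89 CPM (SD, n = 3 each), and the fold was 0.982 with a 95% interval of 0.737 to 1.31. PMS2 has 11 annotated pseudogenes, among them PMS2CL and PMS2P1, and 0 of them are rows of the count table. Reads that fit a pseudogene as well as PMS2 may have been dropped or kept, so the level of PMS2 is uncertain. The promoter window of PMS2 (minus strand, first of the annotated starts) held 3 CCAAT boxes and 1 cyclic AMP response element (CRE, TGACGTCA). AIMP2, a scaffold gene of the tRNA synthetase complex, starts 120 bp away on the opposite strand. AIMP2 was at 23.3, 25.6 and 21.7 CPM in CAD-KO+IR and 27.2, 24.6 and 9.52 CPM in sgVec+IR. The low value was that of sgVec+IR replicate 3, at 0.368 times the mean of the other libraries of its group, where PMS2 was at 1.14 times. The correlation of PMS2 with AIMP2 over 6 libraries was -0.515.

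PMS1, a MutL subunit without a settled role in repair of replication errors, varied more than the other members. It lies on the plus strand at chr2:189784085-189877629. The levels were 57.0, 82.9 and 61.9 CPM in CAD-KO+IR and 53.1, 50.4 and 87.2 CPM in sgVec+IR. The highest value in each group came from the library that stood apart, at 1.40 times the mean of the others for CAD-KO+IR replicate 2 and 1.68 times for sgVec+IR replicate 3. With all 6 libraries the fold was 1.06, with a 95% interval of 0.677 to 1.66. The log2 fold change of PMS1, 0.08 with all libraries, was -0.10 without CAD-KO+IR replicate 2, -0.03 without sgVec+IR replicate 1 and -0.05 without sgVec+IR replicate 2. It was 0.38 without sgVec+IR replicate 3, and none of these values passed edgeR's test. With voom and sample weights, which gave those libraries weights of 0.154 and 0.0404, PMS1 reached an adjusted p of 0.0418 at a log2 fold change of 0.23, which is below the fold threshold.

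ORMDL1, a regulator of sphingolipid synthesis, starts 286 bp from PMS1 on the opposite strand, and the genes overlap at their 5' ends. The PMS1 window is shown because the annotated start of ORMDL1 falls inside it. The start of AIMP2 likewise falls inside the PMS2 window, which is not shown. It covers chr2:189784200-189784499 (plus strand, RefSeq, GRCh38.p14), with its 2 CCAAT boxes, 1 on each strand, in capitals.
PMS1 promoter: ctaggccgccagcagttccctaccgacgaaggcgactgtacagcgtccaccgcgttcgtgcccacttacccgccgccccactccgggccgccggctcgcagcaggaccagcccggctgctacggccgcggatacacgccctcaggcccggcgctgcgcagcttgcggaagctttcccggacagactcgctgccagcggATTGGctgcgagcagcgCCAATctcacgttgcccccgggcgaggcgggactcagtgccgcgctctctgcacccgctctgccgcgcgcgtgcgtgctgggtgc
The CCAAT box, searched as CCAAT on both strands, was present in 34.6% of 35116 promoter windows of the same length. ORMDL1 was at 25.0, 43.6 and 26.0 CPM in CAD-KO+IR and 25.1, 23.5 and 52.3 CPM in sgVec+IR. As with PMS1, the highest library of each group was the one that stood apart, at 1.71 and 2.15 times the mean of the others. The correlation of PMS1 with ORMDL1 was 0.972 over 6 libraries, with these 2 libraries far from the other 4. Whether reads of the overlapping ends were shared between the genes was not tested.

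**Figure D2:**
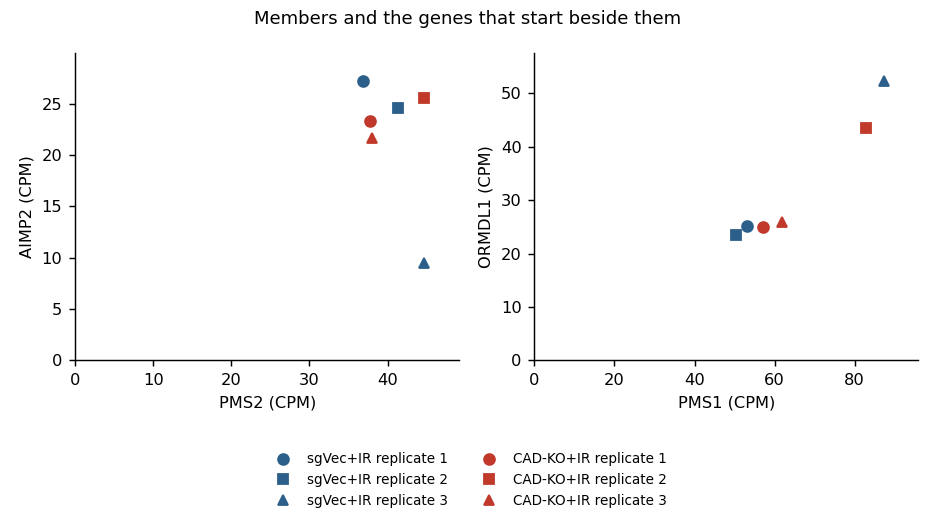
CPM of PMS2 and PMS1 (x axes) against the gene that starts beside each on the opposite strand (y axes), with 1 point per library, sgVec+IR in blue and CAD-KO+IR in red. CAD-KO+IR replicate 2 and sgVec+IR replicate 3 lie far from the other 4 libraries for PMS1 and ORMDL1, and sgVec+IR replicate 3 is low in AIMP2 at 9.52 CPM.

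MLH3, the MutL subunit best known for resolving crossovers in meiosis, which also takes part in the repair of loops, differed most between the groups. It lies on the minus strand at chr14:75013764-75051532. Counts were 741, 1046 and 821 in CAD-KO+IR and 386, 283 and 348 in sgVec+IR. The levels were 40.2, 55.1 and 46.7 CPM against 23.6, 19.4 and 24.5 CPM. Every CAD-KO+IR library was higher than every sgVec+IR library, and the means of 47.4 ± 7.51 and 22.5 ± 2.76 CPM (SD, n = 3 each) lay further apart than the spread within either group. The fold was 2.10 with a 95% interval of 1.51 to 2.94, a log2 fold change of 1.07 (SE 0.204). In bulk RNA, more transcript per cell and more cells with the transcript cannot be told apart. In edgeR's quasi-likelihood test MLH3 ranked 27 of 12925 genes by p, with an unadjusted p of 0.00119 and an adjusted p of 0.550, so it did not pass. A log2 fold change at least as high as that of MLH3 was seen in 1.01% of all genes tested.

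The size of the MLH3 difference moved little between fits, and the adjusted p moved widely. Over 18 alternatives the log2 fold change was 0.95 to 1.19, and the adjusted p ran from 2.57e-10 to 1.0. MLH3 was called in 3 of the 18. These were DESeq2 (adjusted p = 0.00291), voom with sample weights (adjusted p = 4.04e-05, where 5.15% of all genes were called) and edgeR without CAD-KO+IR replicate 2 and sgVec+IR replicate 3 together (1.01, adjusted p = 2.57e-10, where 3.37% of all genes were called). The libraries that stood apart held the highest MLH3 level of each group, so leaving out CAD-KO+IR replicate 2 gave 0.95 and leaving out sgVec+IR replicate 3 gave 1.14.

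**Figure D3:**
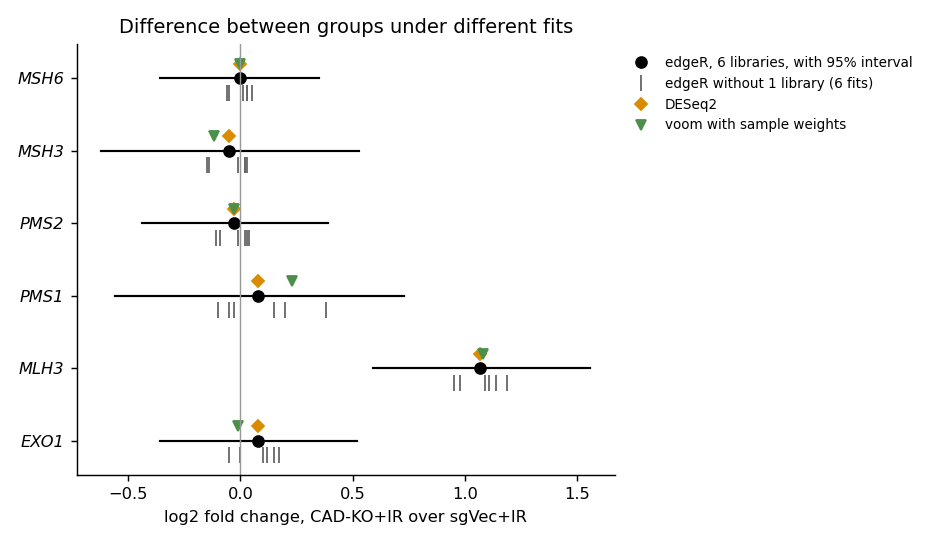
Log2 fold change of each gene, CAD-KO+IR over sgVec+IR, with edgeR's 95% interval (black), the 6 edgeR fits that each leave out 1 library (grey ticks), DESeq2 (orange) and voom with sample weights (green). The MLH3 values lie between 0.95 and 1.19 in the fits shown, and the intervals of the other 5 genes cross 0.

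The promoter window of MLH3 is shown because MLH3 alone of the 6 genes had groups that did not overlap. It covers chr14:75051418-75051717 (minus strand, RefSeq, GRCh38.p14), and none of the 3 motifs searched (E2F, CCAAT, CRE) was found in it on either strand, so no letter is in capitals.
MLH3 promoter: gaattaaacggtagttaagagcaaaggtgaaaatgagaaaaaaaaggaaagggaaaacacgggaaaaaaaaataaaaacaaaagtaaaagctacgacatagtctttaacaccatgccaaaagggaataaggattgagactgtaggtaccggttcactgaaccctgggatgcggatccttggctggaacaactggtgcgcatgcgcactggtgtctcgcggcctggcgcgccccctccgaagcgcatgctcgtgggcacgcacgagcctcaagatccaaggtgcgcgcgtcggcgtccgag
The GC content of this window was 51.0% and it held 22 CpG sites, against medians of 58.7% and 14 over all promoter windows. The windows of MSH6, PMS2, PMS1 and EXO1 had GC contents of 52.7% to 78.0%. No annotated gene started within 2 kb of MLH3 on the opposite strand. The 10 tested genes nearest to MLH3, from PROX2 to FOS at chr14:74852871-75282230, were looked up after the values of MLH3 had been seen. Their median log2 fold change was -0.14, with a range of -0.62 to 0.72, and 3 of 10 were higher in CAD-KO+IR. At an unadjusted p under 0.05 in edgeR there were 0 of 10, against 2.85% of all genes tested. Groups did not overlap for EIF2B2 (higher) and NEK9 (lower), against 10.2% of all genes tested. ACYP1, the nearest gene upstream, was at -0.50 (SE 0.332) and EIF2B2, the nearest downstream, at 0.26 (SE 0.160).

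EXO1, the exonuclease that takes out the strand with the error, overlapped between the groups. It lies on the plus strand at chr1:241847967-241895148. The levels were 56.1, 68.3 and 51.4 CPM in CAD-KO+IR and 57.1, 48.7 and 60.7 CPM in sgVec+IR. The means were 58.6 ± 8.72 and 55.5 ± 6.14 CPM (SD, n = 3 each), and the fold was 1.06 with a 95% interval of 0.777 to 1.44. The first promoter window of EXO1 is shown because it held an E2F motif, known from promoters of S-phase genes and searched as TTTCGCGC or TTTGGCGC on both strands, as well as a CRE. It covers chr1:241847954-241848253 (plus strand, RefSeq, GRCh38.p14), with both matches in capitals.
EXO1 promoter: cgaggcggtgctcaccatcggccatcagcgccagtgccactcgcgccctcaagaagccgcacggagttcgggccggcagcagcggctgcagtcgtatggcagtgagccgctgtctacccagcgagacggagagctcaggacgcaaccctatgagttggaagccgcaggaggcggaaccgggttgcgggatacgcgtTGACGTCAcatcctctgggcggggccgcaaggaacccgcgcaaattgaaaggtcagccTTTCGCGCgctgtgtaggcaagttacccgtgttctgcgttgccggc
The E2F motif was present in 1.15% and the CRE in 1.85% of all promoter windows, and no window of MSH6, PMS2, PMS1 or MLH3 held an E2F match.

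Levels can be compared between genes only per length, and were divided by the summed exon length of each gene in kilobases (kb). EXO1 was highest, with a mean of 14.2 CPM per kb in CAD-KO+IR and 13.4 in sgVec+IR. PMS1 was at 12.3 and 11.7, MSH6 at 11.7 in both groups and PMS2 at 10.2 and 10.4 CPM per kb. PMS1 came second in CAD-KO+IR, and PMS1 and MSH6 were level in sgVec+IR. The ranges of neighbours among these 4 genes overlapped in both groups. MLH3 lay below them at 5.66 CPM per kb in CAD-KO+IR and 2.69 in sgVec+IR, and MSH3 was lowest at 1.27 and 1.31, and neither range overlapped that of its neighbour in the order. Among 12913 genes, this put MLH3 at percentile 49.1 in CAD-KO+IR and 30.7 in sgVec+IR, while MSH3 was at percentile 19.5 in sgVec+IR and close to it in CAD-KO+IR. The order of the upper 4 genes depended on the length. With the length of the principal transcript, PMS1 came first at 20.9 and 19.7 CPM per kb, followed by EXO1, MSH6 and PMS2. MLH3 and MSH3 kept their places in the order, but their percentiles were lower. Among 12893 genes, MLH3 was then at percentile 38.2 in CAD-KO+IR and 23.7 in sgVec+IR, and MSH3 at 16.1 and 15.9. From summed exons to the principal transcript, the length of PMS1 went from 5.45 to 3.23 kb, that of EXO1 from 4.14 to 3.19 kb and that of MSH6 from 11.0 to 7.48 kb.

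Since MSH3 and MSH6 are alternative subunits of MutS, and PMS1, PMS2 and MLH3 of MutL, ratios within a library were compared, which do not depend on depth. MSH6 over MSH3, per kb, was 9.63, 8.62 and 9.56 in CAD-KO+IR and 8.32, 9.52 and 9.18 in sgVec+IR. PMS2 over PMS1 was 0.918, 0.747 and 0.850 against 0.960, 1.13 and 0.709. Both ratios overlapped between the groups (log2 differences 0.04 and -0.13, two-sided exact permutation p = 0.5 and 0.6, both 0.6 after Benjamini-Hochberg adjustment over 3 ratios). PMS2 over MLH3 was 2.0, 1.72 and 1.73 in CAD-KO+IR and 3.31, 4.53 and 3.86 in sgVec+IR, without overlap. The log2 difference was -1.10, with an exact permutation p of 0.1, which is the smallest that 3 against 3 libraries can give, and 0.3 after adjustment. Of the summed level of PMS1, PMS2 and MLH3, MLH3 made up 20.1% ± 0.859 in CAD-KO+IR and 11.0% ± 1.65 in sgVec+IR (SD, n = 3 each). In sgVec+IR the lowest of these shares, 9.7%, was that of replicate 3, where PMS1 was high.

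**Figure D4:**
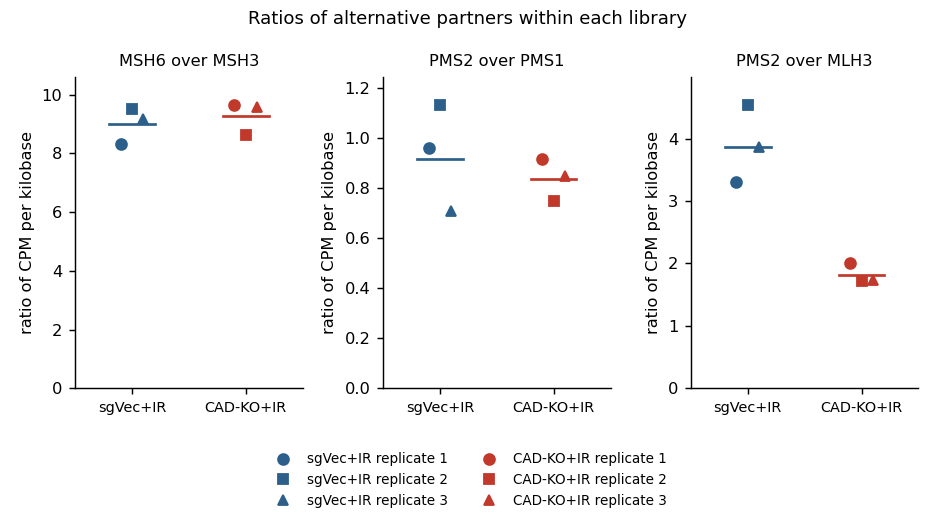
Ratio of CPM per kb within each library for MSH6 over MSH3, PMS2 over PMS1 and PMS2 over MLH3, with 1 point per library, a bar at the geometric mean of 3 libraries, and axes that start at 0. PMS2 over MLH3 is 1.72 to 2.0 in CAD-KO+IR and 3.31 to 4.53 in sgVec+IR, and the other ratios overlap.

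A list of 18 genes, mainly of the clamp, its loader and DNA synthesis, was also described, and these are called partner genes below. It held the clamp PCNA, the clamp loader RFC1 to RFC5, the single-strand binding proteins RPA1 to RPA4 and polymerase delta subunits POLD1 to POLD4. The others were the ligase LIG1, the flap nuclease FEN1, HMGB1 and SSBP1. The protein of SSBP1 is mitochondrial, so it is not taken as acting with the members. Of the 18 genes, 17 were tested (RPA4 did not pass the filter). None was called by edgeR or DESeq2 (against 0.0309% and 0.245% of all genes), and 0 had an unadjusted p under 0.05 in edgeR (against 2.85%). Their median log2 fold change was -0.02, with 7 higher and 10 lower in CAD-KO+IR, close to the median of all genes. SSBP1, the mitochondrial single-strand binding protein, was the 1 gene of the 17 whose groups did not overlap, against 10.2% of all genes tested, so the list held no more such genes than the background. It was at 109, 135 and 114 CPM in CAD-KO+IR and 105, 98.8 and 63.3 CPM in sgVec+IR, with a log2 fold change of 0.42 (SE 0.229). The other genes with the smallest p were RPA3 (log2 fold change -0.61, SE 0.367), POLD3 (0.22, SE 0.192), LIG1 (-0.25, SE 0.227) and RFC5 (-0.27, SE 0.298). RPA3 was at 18.1 to 22.5 CPM in CAD-KO+IR, 24.6 and 18.8 CPM in sgVec+IR replicates 1 and 2, and 49.4 CPM in sgVec+IR replicate 3.

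**Figure D5:**
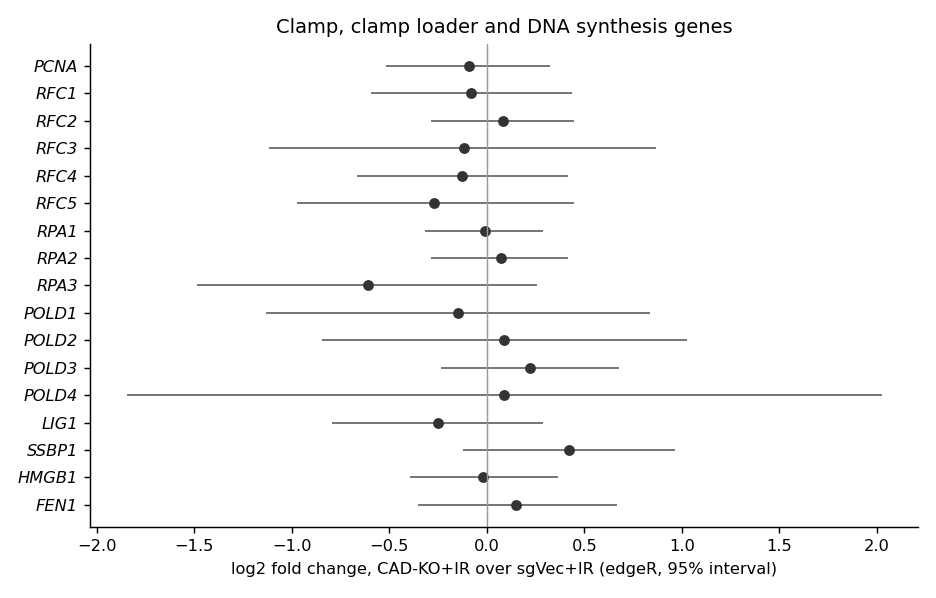
Log2 fold change, CAD-KO+IR over sgVec+IR, of the 17 tested clamp, clamp loader and DNA synthesis genes, as points with edgeR's 95% interval. All intervals cross 0, and the values run from -0.61 (RPA3) to 0.42 (SSBP1).

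The meiotic MutS homologs, which act in crossover formation beside MLH3, were both expressed at a low level and overlapped between the groups. MSH4 was at 2.55 to 4.01 CPM in CAD-KO+IR and 2.75 to 3.90 CPM in sgVec+IR, with a log2 fold change of -0.06 (95% interval -0.82 to 0.69). MSH5 was at 8.59 to 12.1 and 6.54 to 13.2 CPM, with a log2 fold change of -0.01 (95% interval -0.76 to 0.73).

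Because several repair genes follow the cell cycle, 14 S-phase genes were listed as well (MCM2 to MCM7, CDC6, CDC45, GINS2, RRM2, TYMS, CCNE2, CLSPN and POLA1). None was called by edgeR or DESeq2 (against 0.0309% and 0.245% of all genes) and 0 had an unadjusted p under 0.05 in edgeR (against 2.85%), with 8 higher and 6 lower and a median log2 fold change of 0.02. Groups did not overlap for 2 of 14, CLSPN and TYMS, against 10.2% of all genes, and TYMS, the thymidylate synthase gene, differed little (27.1 ± 0.354 against 26.5 ± 0.260 CPM, SD, n = 3 each). CLSPN, a checkpoint mediator at replication forks, had the smallest p, with a log2 fold change of 0.38 (SE 0.172) and levels of 76.2 to 87.6 CPM in CAD-KO+IR and 55.0 to 71.6 CPM in sgVec+IR. CCNE2, the cyclin of S-phase entry, was at 0.44 (SE 0.274) and CDC45, a part of the replicative helicase, at -0.24 (SE 0.196).

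The genes whose levels followed each member most closely over the 6 libraries were ranked by the Pearson correlation of log2 CPM, given as a description since both groups and the libraries that stood apart enter it. For MLH3 these were IL20RA (0.991), ANXA3 (0.991) and VCAN (0.989), with log2 fold changes of 0.70, 0.75 and 0.87 between the groups. For MSH6 they were ENOX2 (0.990), FNIP2 (0.975) and RAD51C (0.974), and for MSH3 BBOF1 (0.983), MGST2 (0.971) and ATF7 (0.961). PMS2 was followed most closely by HEATR6 (0.991), RABGEF1 (0.987) and GPM6A (0.982), and EXO1 by DRG1 (0.973), RCL1 (0.964) and EPC2 (0.964). PMS1 had the closest followers, PTBP3 (1.0), NUDCD1 (0.999) and GOPC (0.999), and CAD-KO+IR replicate 2 and sgVec+IR replicate 3 were its high libraries. Among the members themselves, the pairs without MLH3 correlated at 0.349 (MSH3 with PMS2) to 0.908 (MSH6 with EXO1). MLH3 correlated with the other 5 members at 0.0413 to 0.459, so these ranges overlap. The difference of MLH3 between the groups enters its correlations.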

How the data were processed

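Gene counts of 6 bulk RNA-seq libraries (3 CAD-KO+IR, 3 sgVec+IR) were used as deposited. By the study's methods, total RNA was sequenced, reads were cleaned with fastp, and the authors made raw counts per gene with featureCounts (1.5.0-p3), before a DESeq2 (1.36.0) analysis that is not used here. The aligner, annotation and use of strand are not given in the sources used here. The labels list a mouse genome build and genomic DNA, but all 20020 identifiers are human genes and the protocol describes mRNA libraries. Columns were matched to samples by title.

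Genes were kept by filterByExpr (minimum count 10, minimum total 15), leaving 12925. edgeR 4.0.16 (TMM, quasi-likelihood test, legacy set to FALSE; R 4.3.3) was the test between groups. Benjamini-Hochberg adjustment covered all genes tested, with calls at adjusted p under 0.05 and a fold of at least 1.5. DESeq2 1.42.0 on the unfiltered table, limma 3.58.1 (voom, with and without sample weights), other normalizations and filters, a replicate block and each library left out were alternatives. Leaving out both libraries that stood apart, and the principal transcript length, were chosen after seeing the data. Correlations and likeness used log2 CPM with a prior count of 2. Positions and lengths came from GENCODE 29 (GRCh38), to which 19823 identifiers matched once the version was ignored, and promoters from RefSeq (GRCh38.p14). The main edgeR fit was also tested on simulated data with 200 altered genes, and the alternatives were not.

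The members and lists were chosen with earlier results of these data known. The genes named are the 6 members, the 5 partner genes with the smallest p, MSH4, MSH5, DFFB, genes starting within 2 kb of a member on the opposite strand, the 3 genes most correlated with each member, and 3 S-phase genes. The cell markers were a fixed list. FBXO11, the genes beside MLH3 (PROX2, ACYP1, EIF2B2, NEK9 and FOS) and TYMS were named outside this rule, after values were seen. A further item that this rule covers is not reported here. Totals of 14032994 to 19574144 counts set the precision, and for a gene without a count 3 counts give a limit of 0.153 to 0.214 CPM per library, for counting error only.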

Additional observations from a re-analysis of the deposited data

How the results depend on the processing

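The groups of MLH3 did not overlap, so leaving out or weighting libraries could not turn its direction, which was the same in all 18 alternatives. The number of the 6 genes called was 0 in edgeR and 1 (MLH3) with DESeq2, with voom and sample weights, and without CAD-KO+IR replicate 2 and sgVec+IR replicate 3 together. At an unadjusted p under 0.05 the number was 1, and 2 with voom and sample weights and without both libraries. The share of all genes at that threshold is not given for those fits, so 2 of 6 has no background there. The cause of these changes in number was not tested. Over all genes, edgeR called 4, DESeq2 41, voom 0, voom with sample weights 666, edgeR without both libraries 440, and the fits that left out 1 library 0 to 22, the last without sgVec+IR replicate 3. MSH6 changed sign to 0.01 (log2) without a filter on low counts and without both libraries, and EXO1 to -0.01 with voom and sample weights. With each library left out in turn, the log2 fold changes were -0.06 to 0.05 for MSH6, -0.15 to 0.03 for MSH3, -0.11 to 0.04 for PMS2, -0.10 to 0.38 for PMS1, -0.05 to 0.17 for EXO1 and 0.95 to 1.19 for MLH3, and no member was called in any of these fits. With each library left out, the log2 difference of PMS2 over MLH3 was -1.21 to -0.98. That of MSH6 over MSH3 was -0.01 to 0.09, turning sign without sgVec+IR replicate 1. That of PMS2 over PMS1, -0.13 with all libraries, was -0.32 without sgVec+IR replicate 3 and 0.02 without sgVec+IR replicate 2. Gene length is the same divisor in every library, so it cancels from the differences of these ratios and could not move them. Of the partner genes 0 were called in any fit, and 0 had an unadjusted p under 0.05 in edgeR, against 4 with voom and sample weights, 3 without both libraries and 1 without sgVec+IR replicate 2 or 3. The share of all genes at that threshold is given only for the main edgeR fit (2.85%). The counts from the other fits therefore have no background beside them, and nothing is concluded from them.

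Samples with the same replicate number deviated from their group means with correlations of 0.468, -0.545 and -0.379. The libraries that stood apart, CAD-KO+IR replicate 2 and sgVec+IR replicate 3, carry different numbers and shape these values. Whether the numbers pair the samples therefore cannot be decided from them. With the number as a replicate block, 0 genes were called over the table, and MLH3 was at 1.07 with an adjusted p of 1.0. Depth limits MSH3 most, with 77 to 129 counts per library.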
